A study of Mus musculus with 12 samples.

Results

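Dkk1 and 9 other genes of the Wnt pathway were examined in neural progenitor cells (NPCs) labelled as given a Srf or Mkl1 transgene or a hairpin against the β-actin gene Actb. The 10 genes were 7 secreted antagonists of Wnt signalling (Dkk1, Dkk2, Dkk3, Sfrp1, Sfrp2, Frzb and Wif1) and 3 genes that are targets or feedback regulators of the pathway (Axin2, Lef1 and Nkd1). They were chosen by name, because Dkk1 differed in opposite directions on the arrays labelled Srf and on those labelled Mkl1 or shActb. Every probe of a member was included, which gave 13 probes for 10 genes out of 55681 probes and 21154 named genes on the array. Because the measured changes against the controls led to this choice, the members' values in those 4 comparisons are given as a description, without p-values.

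The NPCs came from mouse embryonic stem cells (ESCs) by differentiation in vitro and were grown with EGF and bFGF. The 12 arrays, each hybridized with 1 RNA sample, fell into 6 groups of 2. In the overexpression experiment, the labels give the cells a retroviral EGFP transgene (the control), a Mkl1 transgene or a Srf transgene. Srf is a transcription factor, and Mkl1 is its cofactor, which actin monomers hold back from the nucleus. In the knockdown experiment, the cells carried a retroviral short hairpin RNA (shRNA) against EGFP (shEGFP, the control), or 1 of 2 different hairpins against Actb (shActb_1 and shActb_2). The parent ESC line has a blasticidin resistance gene in Oct4, and some NPC lines of the study also carry doxycycline-inducible reprogramming factors and were made from induced pluripotent cells. For molecular analyses the methods name the line NSEB5-2C, without these factors, or N31, which carries them. Which of these lines was hybridized is not given in the sources used here. The study calls its duplicates for the Actb knockdown technical, so errors and p-values here measure the spread between arrays and not between cultures.

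The arrays correlated within a group at r = 0.9933 to 0.9976, and 59.28% to 72.48% of probes per array were well above background. Levels are log2 signals relative to the 75th percentile of the array, so a level can be compared between arrays for 1 probe but not between probes. The label of the Srf arrays was not matched by the Srf probes, whose log2 differences from EGFP were -2.46 (SE 0.06) and -1.40 (SE 0.13). The same probes of Srf were at 0.71 and 1.18 with Mkl1 against EGFP, and at 0.90 and 0.60 with shActb_1 and 0.97 and 0.75 with shActb_2 against shEGFP. By the methods, the transgene held the open reading frame of Srf. Whether these probes lie within it is not given in the sources used here. The 2 arrays with this label are called the arrays labelled Srf throughout. Both Mkl1 probes differed from EGFP by only 0.20 (SE 0.08) and 0.17 (SE 0.11) on the arrays labelled Mkl1, which are called by that label below, differences that did not pass the test (adjusted p = 0.12 and 0.312, limma). Actb fell by 0.53 (SE 0.05, adjusted p = 0.00128, limma) with shActb_1 and by 0.65 (SE 0.05, adjusted p = 0.000197, limma) with shActb_2. Of 9 neural progenitor markers, 8 were well above background in every group, Olig2 being the exception. Of 8 mesenchymal markers, 7 or 8 were also above background in every group, among them Col1a1. On the arrays labelled Srf, Thy1 of this list rose, Lum was above background on both arrays there and on neither EGFP array, and Col1a2 fell, with a median difference of 0.32 over 8 tested genes. With Mkl1, shActb_1 and shActb_2, Thy1 rose and Pdgfrb and Dcn fell, with medians of -0.71, -0.49 and -0.65 over 7. The summed signal of the list, to which its brightest genes contribute most, in multiples of the array's 75th percentile, was 171.6 to 172.6 with EGFP, 100.8 to 120.8 with Mkl1 and 99 to 102.1 on the arrays labelled Srf. It was 135.3 to 144 with shEGFP, 103.7 to 114.4 with shActb_1 and 81.81 to 84.96 with shActb_2. The summed signal of 6 neuronal markers, of which 5 or 6 were above background in a group, was 7.782 to 9.885 in the controls and 3.39 to 4.132 in the 4 treated groups. Among them Stmn2 fell in all 4 comparisons, Map2 fell with Mkl1 and both hairpins and Syt1 with Mkl1, while Tubb3 rose on the arrays labelled Srf. Embryonic stem cell markers summed to 2.237 to 3.14 with EGFP and 4.561 to 5.169 on the arrays labelled Srf, where Esrrb rose but the median difference of the list was 0.04. Nanog of this list fell with shActb_2, with means at 1 probe of -2.50 there and -1.38 with shEGFP. Its other probes were also lower, by under 2-fold. Astrocyte markers summed to 2.932 to 3.199 with EGFP and 4.897 to 5.079 on the arrays labelled Srf, where Aldh1l1 was at 0.78 and the other 3 of 4 probes were negative. They summed to 3.743 to 4.303 with shEGFP, 1.98 to 2.178 with shActb_1 and 2.305 to 2.495 with shActb_2, and none of them met the criterion in any of the 4 comparisons. Neural progenitor markers summed to 21.52 to 25.56 with EGFP and 38.53 to 39.53 with Mkl1, and to 25.13 to 26.02 with shEGFP and 36.47 to 36.7 with shActb_2. Most probes of this list went the other way, with 2 of 10 positive and a median of -0.49 with Mkl1, and 3 of 10 and -0.22 with shActb_2. Nes rose and Slc1a3 fell with Mkl1, Sox1 and Slc1a3 fell with shActb_2, where Pax6 was at least 2.03-fold higher at a probe not above background with shEGFP and at 0.57 at its brighter probe, Sox2, Fabp7 and Slc1a3 fell with shActb_1, and Sox2 fell on the arrays labelled Srf. These shifts moved with the treatments and their part in the results on the members was not tested. In such bulk samples, fewer cells of a type and less RNA per cell cannot be told apart.

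Wnt proteins bind Frizzled receptors together with the coreceptors Lrp5 and Lrp6, which keeps β-catenin from being degraded and lets it act on genes with Tcf and Lef factors. Dkk proteins bind the coreceptors, whereas Sfrp proteins, Frzb and Wif1 bind the Wnt ligands themselves. In the developing nervous system, Wnt signals take part in patterning and in the balance between growth and differentiation of progenitors. Axin2 and Nkd1 are induced by the pathway and dampen it, and Lef1 is both one of its transcription factors and one of its targets.

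Promoter windows from RefSeq (GRCm38.p6; 250 bases before to 50 after a gene's start) were found for 8 of the 10 members, with 11 windows in all because Lef1 has 4 starts. Dkk3 and Sfrp1 had none. Windows are shown for the members with the highest (Sfrp2 and Dkk1) and the lowest (Dkk2) difference from EGFP on the arrays labelled Srf, and for the Lef1 start that held the only CArG box, the sequence that Srf binds. All are written 5′ to 3′ in the direction of the gene. Capitals mark matches to the CArG box, to a Tcf/Lef site (CTTTGAA or CTTTGAT or CTTTGTA or CTTTGTT) or to a TATA box (TATAAA), searched on both strands. The Dkk1 window is chr19:30549447-30549746 on the minus strand, and the others are on the plus strand at chr3:83766071-83766370 (Sfrp2), chr3:132085042-132085341 (Dkk2) and chr3:131112541-131112840 (Lef1).
Dkk1: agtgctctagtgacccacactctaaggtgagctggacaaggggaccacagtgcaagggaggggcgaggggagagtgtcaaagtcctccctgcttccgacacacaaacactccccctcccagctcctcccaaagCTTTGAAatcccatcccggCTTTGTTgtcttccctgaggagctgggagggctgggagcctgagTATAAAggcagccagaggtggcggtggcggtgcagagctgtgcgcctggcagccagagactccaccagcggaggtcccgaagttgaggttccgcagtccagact
Sfrp2: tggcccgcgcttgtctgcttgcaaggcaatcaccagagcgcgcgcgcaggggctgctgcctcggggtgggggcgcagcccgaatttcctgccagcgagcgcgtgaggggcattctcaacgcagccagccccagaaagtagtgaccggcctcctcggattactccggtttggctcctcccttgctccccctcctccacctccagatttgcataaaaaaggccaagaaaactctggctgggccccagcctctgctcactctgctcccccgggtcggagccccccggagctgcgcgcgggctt
Dkk2: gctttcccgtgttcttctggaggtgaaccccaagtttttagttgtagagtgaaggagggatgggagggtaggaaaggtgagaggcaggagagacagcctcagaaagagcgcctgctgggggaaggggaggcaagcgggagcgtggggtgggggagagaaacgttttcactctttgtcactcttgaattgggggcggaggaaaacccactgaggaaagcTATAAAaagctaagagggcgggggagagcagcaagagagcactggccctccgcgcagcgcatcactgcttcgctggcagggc
Lef1: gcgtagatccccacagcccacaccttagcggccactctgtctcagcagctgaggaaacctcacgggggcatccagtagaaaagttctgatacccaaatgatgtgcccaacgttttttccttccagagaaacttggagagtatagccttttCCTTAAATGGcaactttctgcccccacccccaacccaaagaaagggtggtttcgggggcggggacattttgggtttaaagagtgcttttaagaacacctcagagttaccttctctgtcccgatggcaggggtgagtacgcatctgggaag

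The Dkk1 window held 2 Tcf/Lef matches, CTTTGAA at -117 to -111 and CTTTGTT at -98 to -92 from the start, and a TATA box at -54 to -49. Dkk2 held a TATA box at -32 to -27, and the Sfrp2 window held no match. The Lef1 window held a CArG box at -100 to -91. Another Lef1 window had the only other Tcf/Lef match among the members, and no matches overlapped. Of the 32851 promoter windows in the RefSeq table, 1.63% held a CArG box, 16.9% a Tcf/Lef match and 13.6% a TATA box. No member window held GGAATG, the sequence bound by TEAD factors, or TGANTCA, the AP-1 sequence, which were in 14.7% and 7.81% of all windows. Such a match is a description of the sequence and not evidence of a bound site, and its absence says only that these letters are not in the window.

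Of the 13 member probes, 7 were well above background on all 12 arrays, for the 6 genes Dkk1, Dkk2, Dkk3, Sfrp2, Lef1 and Nkd1. Wif1 (NM_011915) and 1 Axin2 probe were not well above background on any array, and the other Axin2 probe was so on 1 EGFP array alone. The 2 genes Wif1 and Axin2 therefore have no measured change. Sfrp1, Frzb and the second Nkd1 probe were above background in some groups and are given with that limit.

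**Figure D1:**
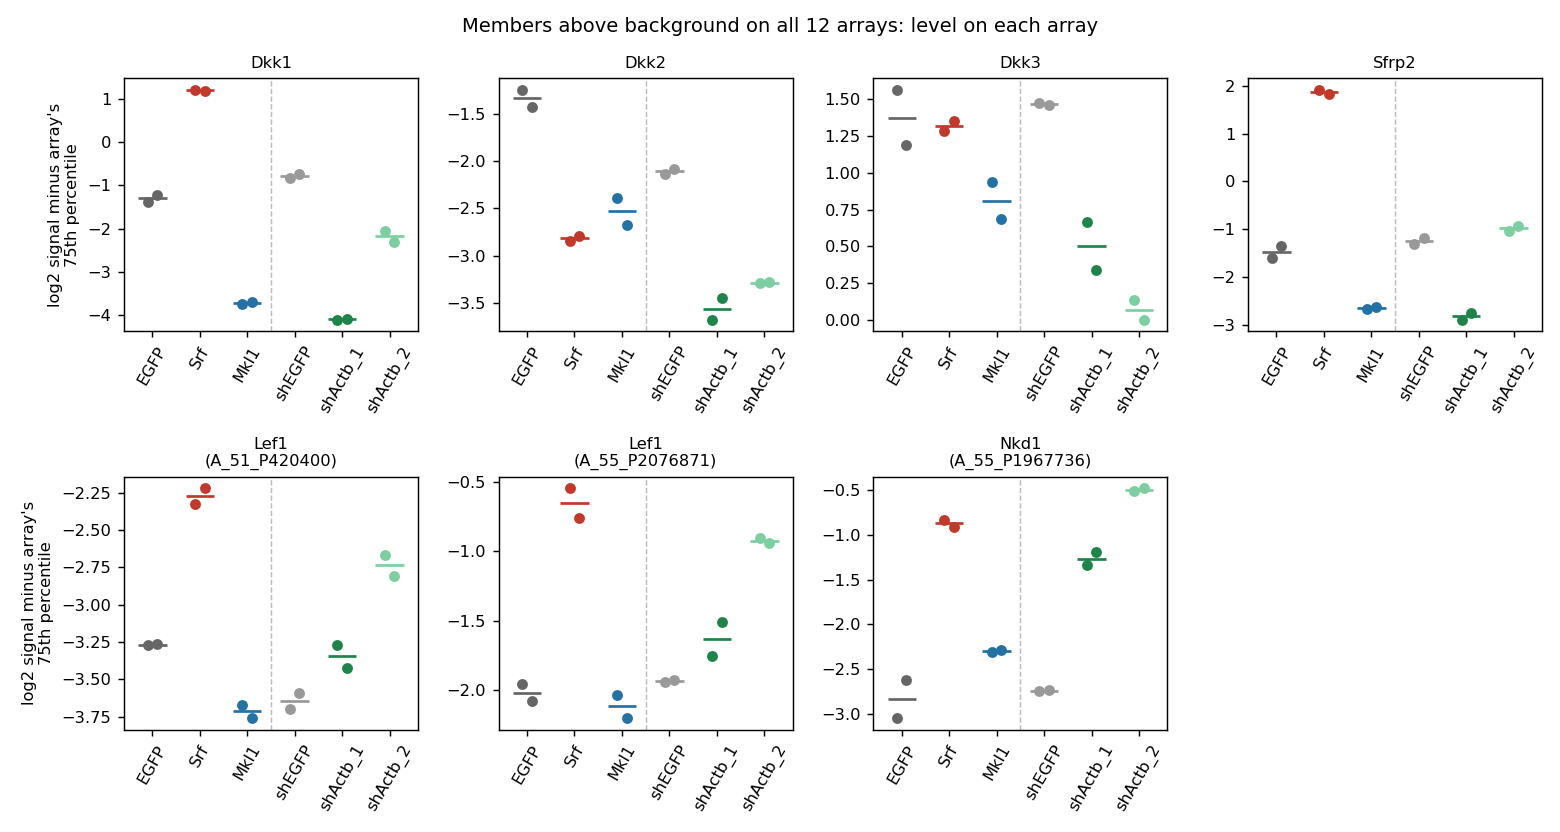
Level of each member probe that was well above background on all 12 arrays, as log2 signal minus the array's 75th percentile (vertical axis, scaled for each probe), in the 6 groups. Points are arrays, lines are the means of 2 arrays, and the dashed line separates the overexpression from the knockdown experiment. Dkk1 and Sfrp2 were highest on the arrays labelled Srf, and Dkk1 was lowest with shActb_1.

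Dkk1 (NM_010051), the coreceptor antagonist that opposes canonical Wnt signalling in the early embryo, covered the widest range among the member probes detected on all arrays. Its levels were -1.38 and -1.23 on the EGFP arrays, 1.21 and 1.19 on the arrays labelled Srf, and -3.74 and -3.70 with Mkl1. In the knockdown experiment they were -0.83 and -0.73 with shEGFP, -4.11 and -4.09 with shActb_1, and -2.06 and -2.30 with shActb_2. The arrays labelled Srf were thus the highest, and the shActb_1 arrays the lowest, and no neighbouring groups overlapped in the order Srf, shEGFP, EGFP, shActb_2, Mkl1 and shActb_1. The closest neighbours were Mkl1 and shActb_1, 0.36 apart between their nearest arrays, which lay on different slides.

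Against its control, Dkk1 was 5.66-fold higher on the arrays labelled Srf (log2 difference 2.502, SE 0.09), the 148th highest of 35556 probes measured. It was 5.33-fold lower with Mkl1 (log2 difference -2.41, SE 0.09), the 36th lowest of 35769. With shActb_1 the difference was -3.32 (SE 0.09), the 11th lowest of 36242 probes. With shActb_2 it was -1.40 (SE 0.09), or 2.65-fold, the 782nd lowest of 36177. The shActb_2 arrays were alone on their slide, so in every comparison with shEGFP this hairpin and the slide cannot be told apart. Processed signals, before scaling, ran from 60.3 and 65.8 with shActb_1 to 2009 and 1998 on the arrays labelled Srf, and were 341 and 388 with EGFP.

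Dkk2 (NM_020265), which can act as an agonist or an antagonist depending on the cell, was lower than its control in all 4 comparisons. Its levels were -1.25 and -1.43 with EGFP, -2.84 and -2.79 on the arrays labelled Srf, and -2.39 and -2.67 with Mkl1. They were -2.14 and -2.08 with shEGFP, -3.68 and -3.45 with shActb_1, and -3.29 and -3.28 with shActb_2. No treated array overlapped its control arrays. The log2 differences were -1.48 on the arrays labelled Srf, -1.19 with Mkl1, -1.45 with shActb_1 and -1.17 with shActb_2 (SE 0.12 each), so that on the arrays labelled Srf the Dkk1 and Dkk2 values differed from EGFP in opposite directions.

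Dkk3 (NM_015814), a divergent family member that is not known as a typical coreceptor antagonist, was at 1.56 and 1.19 with EGFP and at 1.28 and 1.35 on the arrays labelled Srf, so these groups overlapped. It was at 0.94 and 0.69 with Mkl1, below both EGFP arrays by a mean of 0.56 (SE 0.16). With shEGFP it was at 1.47 and 1.46, with shActb_1 at 0.67 and 0.34, and with shActb_2 at 0.14 and 0.0031. Both hairpins lay below the control, by 0.96 with shActb_1 and by 1.40 with shActb_2 (SE 0.16 each).

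Among the ligand-binding antagonists, Sfrp2 (NM_009144) resembled Dkk1 in 3 of the 4 comparisons and departed from it with shActb_2. Its levels were -1.60 and -1.36 with EGFP, 1.91 and 1.82 on the arrays labelled Srf, and -2.66 and -2.62 with Mkl1. They were -1.31 and -1.17 with shEGFP, -2.89 and -2.75 with shActb_1, and -1.03 and -0.94 with shActb_2. The difference on the arrays labelled Srf was 3.34 (SE 0.10), or 10.16-fold, the 54th highest of 35556 probes. Sfrp2 was lower than its control by 1.16 (SE 0.10) with Mkl1 and by 1.57 (SE 0.10) with shActb_1. With shActb_2 it was 0.26 higher (SE 0.10), the difference being small although the arrays did not overlap.

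Sfrp1 (NM_013834) was near the detection limit. It was above background on both arrays labelled Srf (-3.96 and -4.00), both shActb_1 arrays (-4.63 and -2.39) and 1 Mkl1 array, and on no array of EGFP, shEGFP or shActb_2. The arrays labelled Srf were at least 2.53-fold higher than EGFP, and shActb_1 at least 5.80-fold higher than shEGFP. Here, and for other probes not above background in 1 group, the bound sets the brighter mean against the lowest signal detected on the dim arrays, or the dim probe's own signal where that is higher. The shActb_1 arrays of Sfrp1 were themselves 2.24 apart, and the log2 difference from shEGFP of 2.90 (SE 0.64) became 1.78 without shActb_1 replicate 2. On the arrays labelled Srf, the log2 difference from EGFP of 1.37 became 0.42 with the normexp background correction. That value is smaller than the bound of 2.53-fold, so the bound does not hold in that setting.

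Frzb (NM_011356) was at -4.20 and -4.57 with EGFP and at -2.99 and -3.02 on the arrays labelled Srf, 1.38 higher (SE 0.76). It was not well above background with Mkl1 or shActb_1, which were at least 2.36-fold below EGFP and at least 2.33-fold below shEGFP. The shActb_2 arrays read -5.97 and -3.45 around the shEGFP values of -4.78 and -4.88, so no direction can be given there. The direction with shActb_2 turned with the array left out, from -1.14 without replicate 2 to 1.38 without replicate 1.

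Of the target and feedback genes, Lef1 and Nkd1 had other patterns than Dkk1. For Lef1, probe A_55_P2076871 read -1.95 and -2.08 with EGFP, -0.55 and -0.76 on the arrays labelled Srf, and -2.03 and -2.20 with Mkl1. It read -1.94 and -1.93 with shEGFP, -1.75 and -1.51 with shActb_1, and -0.90 and -0.94 with shActb_2. The log2 differences were 1.36 (SE 0.11) on the arrays labelled Srf, -0.10 with Mkl1, where the groups overlapped, 0.31 with shActb_1 and 1.01 (SE 0.11) with shActb_2. The other Lef1 probe, A_51_P420400, gave 0.996, -0.45, 0.30 and 0.91 in the same order (SE 0.08 each), with the same signs.

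Nkd1, whose protein binds Dishevelled, was higher than its control in all 4 comparisons by probe A_55_P1967736. This probe read -3.05 and -2.63 with EGFP, -0.83 and -0.91 on the arrays labelled Srf, and -2.31 and -2.29 with Mkl1. It read -2.74 and -2.74 with shEGFP, -1.34 and -1.19 with shActb_1, and -0.51 and -0.48 with shActb_2. The differences were 1.97, 0.54, 1.48 and 2.25 (SE 0.13 each), and none of the groups overlapped with the control. With Mkl1 the difference was 0.33 without EGFP replicate 1 and 0.75 without EGFP replicate 2. The dimmer probe A_55_P2118694 disagreed for Nkd1, at -0.60 (SE 0.44) on the arrays labelled Srf and -0.81 (SE 0.44) with Mkl1. The former value was -1.07 without Srf replicate 1 and -0.13 without Srf replicate 2. The probe was at 0.22 (SE 0.44) with shActb_1, turning to -0.03 without shEGFP replicate 2, and was not measured against shEGFP with shActb_2, where each of these groups had 1 array above background.

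**Figure D2:**
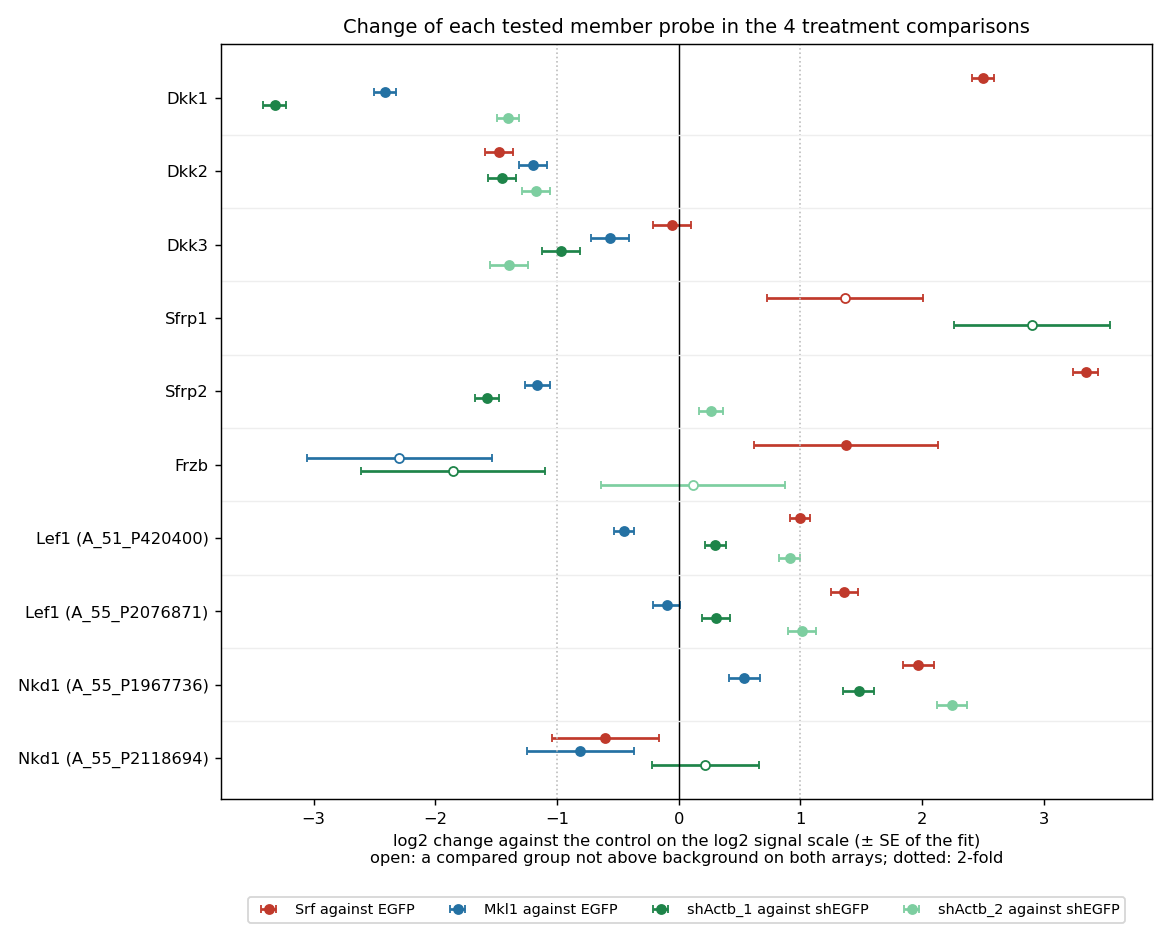
Log2 difference from the control (horizontal axis) of the 10 member probes measured in at least 1 of the 4 treatment comparisons, which the colours give. Bars are the standard error of the fit over 12 arrays, open points involve a group not above background on both of its arrays, and dotted lines mark a 2-fold difference. Dkk1 had 1 positive and 3 negative differences, Dkk2 was negative in all 4, and Nkd1 by its brighter probe was positive in all 4.

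A difference was called at an adjusted p under 0.05 (limma) and a fold over 2. On the arrays labelled Srf, 5.54% of 35556 probes were called (3.29% higher and 2.25% lower, a split that turned without EGFP replicate 2, to 1272 higher and 1652 lower probes), and the members met the criterion at 5 of 10 probes. Dkk1, Sfrp2, Lef1 and Nkd1 were on the higher side and Dkk2 on the lower side. With Mkl1, 2.78% of 35769 probes were called (1.29% higher and 1.49% lower), and 3 of 9 member probes, Dkk1, Dkk2 and Sfrp2, were so on the lower side. The split over all probes turned under quantile normalization, to 818 higher and 459 lower, and Dkk2 and Sfrp2 missed the criterion under normexp (-0.89 and -0.84) and with the compared arrays only. With shActb_1, 1.61% of 36242 probes were called (0.486% higher and 1.12% lower), and 5 of 10 member probes, namely Dkk1, Dkk2 and Sfrp2 on the lower and Sfrp1, measured through the shActb_1 arrays alone and short of the criterion in 6 of 11 alternative settings, and Nkd1 on the higher side. With shActb_2, 6.31% of 36177 probes were called (1.73% higher and 4.58% lower), and 5 of 8 member probes, namely Dkk1, Dkk2 and Dkk3 on the lower and Lef1 and Nkd1 on the higher side. Under normexp, Dkk2 was also short of 2-fold with both hairpins, and Lef1 on the arrays labelled Srf and with shActb_2. The median difference of the measured member probes was 1.36 on the arrays labelled Srf, -0.81 with Mkl1, -0.37 with shActb_1 and 0.19 with shActb_2. Over all measured probes the 4 medians lay between -0.04 and 0.01. The choice of the members used these comparisons, so these shares are no test of the members and nothing is read from them. The probe A_51_P420400 of Lef1 was just outside the threshold on the arrays labelled Srf, at 1.995-fold. The probe A_55_P2076871 was just inside it with shActb_2, at 2.019-fold. EGFP is shared by the comparisons of the arrays labelled Srf and Mkl1, and shEGFP by both hairpin comparisons.

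The hairpins were then compared directly. This comparison was not used to choose the members, but its arrays also enter the hairpin comparisons above. Dkk1 was 3.78-fold higher with shActb_2 than with shActb_1, a log2 difference of 1.92 (SE 0.09, adjusted p = 9.09e-05, limma). Sfrp2 was also higher with shActb_2, by 1.84 (SE 0.10, adjusted p = 0.000118, limma), or 3.58-fold. Of all 35428 tested probes, 5.03% were called (1.79% higher and 3.24% lower, a split that turned without shActb_2 replicate 2). Sfrp1 entered this comparison only through shActb_1, the group in which it was above background, so no test of it is given. Its shActb_1 mean was at least 5.07-fold above shActb_2, a bound that rests largely on the array at -2.39, the other being at -4.63.

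Dkk2 and Dkk3 did not pass the test between the hairpins. Dkk2 differed by 0.28 (SE 0.12, adjusted p = 0.104, limma) and Dkk3 by -0.43 (SE 0.16, adjusted p = 0.0692, limma). Lef1 was higher with shActb_2 by 0.61 (SE 0.08, adjusted p = 0.00225, limma) and by 0.71 (SE 0.11, adjusted p = 0.00352, limma) at its probes. Nkd1 was higher by 0.77 (SE 0.13, adjusted p = 0.00423, limma) at its brighter probe. The Lef1 and Nkd1 differences were under 2-fold. The dimmer Nkd1 probe, above background on both arrays of shActb_1 only, was at -0.33, and at 0.32 without shActb_2 replicate 2. Here too hairpin and slide cannot be told apart. The Actb probe itself differed between the hairpins by -0.12 (SE 0.05, adjusted p = 0.112, limma), which does not show equal knockdown.

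The control groups were also compared, since the 2 experiments used different vectors and slides, which cannot be told apart here. Of all 37684 tested probes, 10.2% were called between shEGFP and EGFP (5.93% higher and 4.29% lower). That split turned without EGFP replicate 2. Of 9 tested member probes 1 was called. This was the dimmer Nkd1 probe, at -1.43 with shEGFP, which was above background on both EGFP arrays but only 1 of 2 shEGFP arrays, so no test of it is given. It missed the criterion in 6 of 11 alternative settings. Dkk1 was higher with shEGFP by 0.53 (SE 0.09, adjusted p = 0.00543, limma), and Dkk2 was lower by 0.77 (SE 0.12, adjusted p = 0.0031, limma), both under 2-fold. The choice of the members used these control arrays and favoured a low EGFP and a high shEGFP value of Dkk1. The p-value of Dkk1 is thus no independent test. Sfrp2 differed by 0.23 (SE 0.10, adjusted p = 0.104, limma) and Dkk3 by 0.09 (SE 0.16, adjusted p = 0.657, limma).

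The rest of the pathway was described with 93 further genes at 128 probes, grouped by role. On the arrays labelled Srf, 9 of 77 tested genes met the same criterion on the higher and 1 on the lower side. With Mkl1, 5 of 76 were higher and 6 lower. With shActb_1, 2 of 76 were higher and 6 lower, and with shActb_2, on a slide of its own, 7 of 75 were higher and 5 lower. These counts include genes that were above background on both arrays of the brighter group only, namely Trabd2b, Ndp and Rnf43 on the arrays labelled Srf, Rspo2 with Mkl1, Trabd2b with shActb_1, and Trabd2b, Lgr5 and Wnt9b with shActb_2. Their values in those comparisons are given without a test. At the level of probes, 11.2%, 12.5%, 8.65% and 12.6% of those tested changed, beside the shares of all probes given above. Their median differences were 0.17, -0.11, -0.04 and 0.01.

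Of 19 Wnt ligand genes, 11 to 13 were tested in a comparison. Wnt7b rose in all 4, by 1.41 on the arrays labelled Srf, 1.78 with Mkl1, 1.44 with shActb_1 and 2.17 with shActb_2 (SE 0.21 each; adjusted p = 0.00276, 0.0018, 0.00648 and 0.000387, limma). Wnt16 fell at both of its probes on the arrays labelled Srf (-1.90 and -1.94), with Mkl1 (-1.18 and -1.27) and with shActb_1 (-1.68 and -1.15), and was at -0.68 at both with shActb_2. Wnt5b fell by 1.45 with Mkl1 and by 1.33 with shActb_1 (SE 0.06 each), and was at -0.02 on the arrays labelled Srf and -0.17 with shActb_2. Wnt6 fell by 1.18 (SE 0.13) with Mkl1. With shActb_2, again not separable from its slide, Wnt4 rose at its probes by 1.46 and 1.76, and Wnt9b was at -1.64, with 1 of 2 shActb_2 arrays above background. The shEGFP level of Wnt4 was itself below EGFP. Its means with EGFP, shEGFP and shActb_2 were -3.54, -4.77 and -3.31 at probe A_51_P130475. They were -2.56, -3.30 and -1.54 at probe A_66_P139703.

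Of the receptors and coreceptors, 1 of 16 tested genes met the criterion on the arrays labelled Srf, 1 of 16 with Mkl1 and 0 of 15 with either hairpin. For the arrays labelled Srf and Mkl1 this was 1 of 20 probes each, against 5.54% and 2.78% of all probes. Fzd4 rose by 1.77 (SE 0.12, adjusted p = 8.7e-05, limma) on the arrays labelled Srf. Ndp, the gene of Norrin, a ligand of this receptor, read -3.03 and -3.27 there and -4.56 and -5.11 with EGFP, where 1 of 2 arrays was above background. Fzd9 rose by 1.08 (SE 0.10) with Mkl1. The coreceptor genes Lrp5 and Lrp6, whose products Dkk1 binds, met both criteria in none of the 4 comparisons.

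Of the R-spondins, secreted proteins that strengthen Wnt signals through Lgr receptors, Rspo2 fell with both hairpins and Rspo3 with Mkl1 as well. Rspo2 fell by 1.44 with shActb_1 and by 1.97 with shActb_2 (SE 0.18 each; adjusted p = 0.00374 and 0.000337, limma). With Mkl1 it read -5.07 and -5.32, with 1 of 2 arrays above background, against -3.49 and -3.58 with EGFP. Rspo3 fell with Mkl1, shActb_1 and shActb_2, with log2 differences of -1.24, -1.997 and -1.33 (SE 0.14 each; adjusted p = 0.00138, 0.000291 and 0.000485, limma). Rspo1 fell by 1.18 (SE 0.16) with shActb_1. On the arrays labelled Srf, none of these met both criteria, with Rspo2 at 0.69, Rspo3 at 0.35 and Rspo1 at -0.83. Lgr6, a receptor for R-spondins, rose by 1.0015 on the arrays labelled Srf and by 1.07 with Mkl1 (SE 0.22 each).

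Among the other antagonists outside the cell, Apcdd1, a membrane inhibitor of Wnt signalling, rose by 1.03 with Mkl1, 1.13 with shActb_1 and 1.36 with shActb_2 (SE 0.16 each), and was at 0.42 on the arrays labelled Srf. Apcdd1 means were 1.36 with EGFP, 0.26 with shEGFP, 1.40 with shActb_1 and 1.62 with shActb_2. Both hairpin differences thus start from a shEGFP level below EGFP. Sfrp5 rose with shActb_2 by 1.39 (SE 0.25). Trabd2b, the gene of a membrane protease that inactivates Wnt proteins, was at least 9.66-fold and at least 6.43-fold higher at 2 of its 3 probes on the arrays labelled Srf. It was at least 5.3-fold higher with shActb_2 at probe A_52_P727235. Trabd2b is among the 6 genes counted as lower with shActb_1 by its fitted difference of -1.03 at probe A_66_P126504, but no shActb_1 array was above background there and the bound is only 1.5-fold, under the 2-fold criterion.

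In the cell, Dact1, which binds Dishevelled, rose by 1.38 (SE 0.22) on the arrays labelled Srf at 1 probe and was at 0.65 at the other. It fell at both probes with Mkl1, by 1.29 and 1.59. Of the nuclear factors, Tle2, a Groucho corepressor, rose by 1.09 (SE 0.09) on the arrays labelled Srf at 1 probe and was at 0.63 at the other, and Tcf7l1 fell by 1.39 (SE 0.10) with shActb_2. Of 12 other targets and feedback genes, Lgr5 rose on the arrays labelled Srf by 1.81 (SE 0.33) and Rnf43 rose with shActb_2 by 1.62 (SE 0.32). Rnf43 read -3.60 and -3.58 on the arrays labelled Srf and -4.46 and -5.51 with EGFP, and Lgr5 read -3.32 and -3.57 with shActb_2 and -4.49 and -5.59 with shEGFP. In each of these control groups 1 of 2 arrays was above background. Cd44 rose by 1.0012 with Mkl1 at 1 of 4 probes, and Nkd2 fell by 1.06 with shActb_2 at 1 probe and was at 0.21 at the other.

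**Figure D3:**
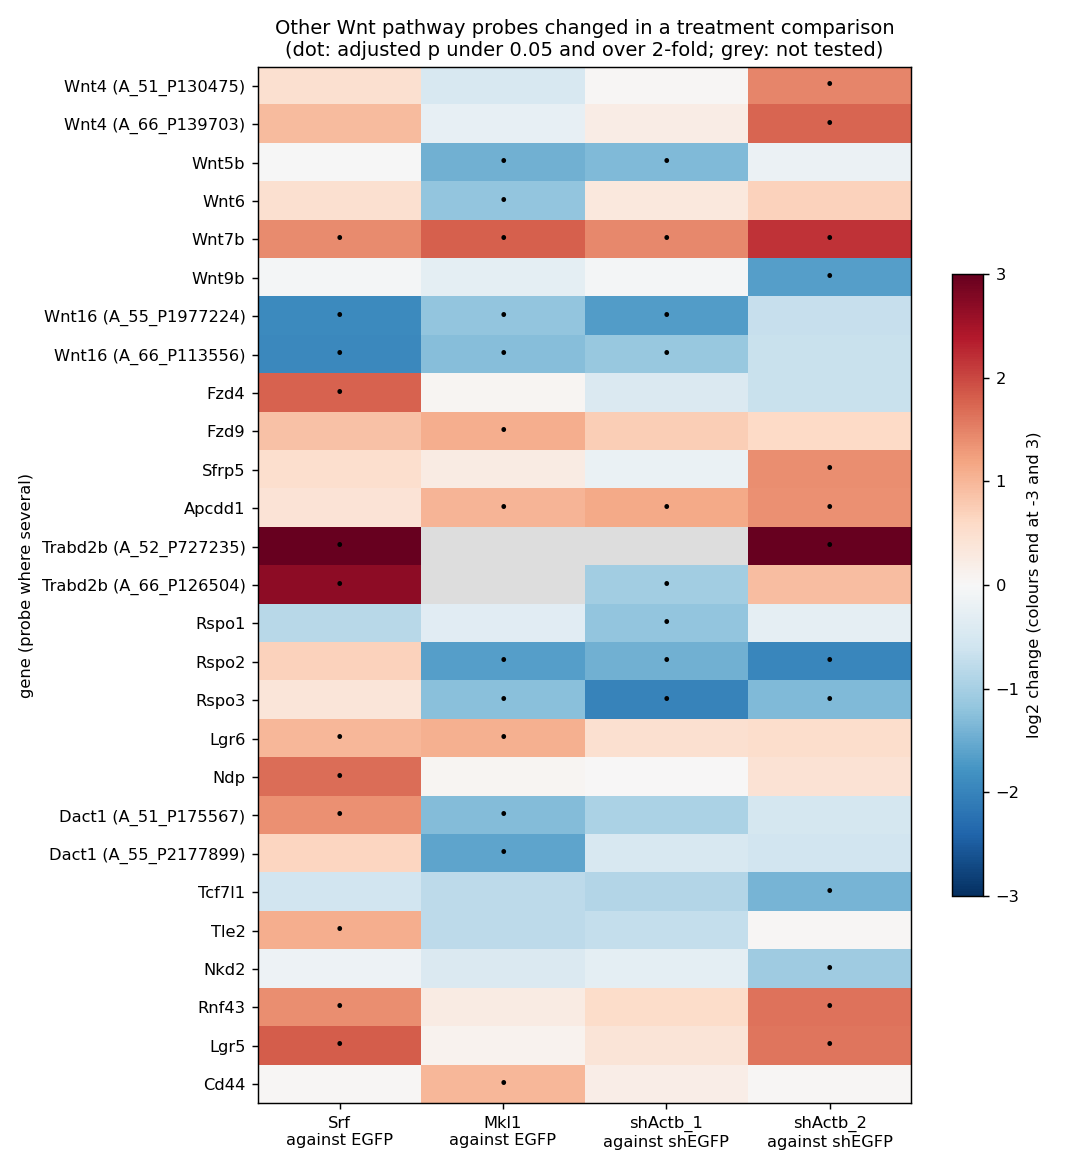
Log2 difference from the control (colour) in the 4 treatment comparisons (columns) for each probe of the other Wnt pathway genes that changed in at least 1 of them (rows, ordered by role from ligands to targets). Dots mark an adjusted p under 0.05 with a fold over 2, and grey cells were not tested. Wnt7b was higher in all 4 columns, and Rspo2 and Rspo3 were lower in those of Mkl1 and both hairpins.

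The genes most like Dkk1 were sought among 13937 named genes with a probe above background on all 12 arrays. Likeness was the root mean square distance between the 4 log2 differences of a gene and those of Dkk1, with a median of 2.54 over all genes. The 5 nearest were Meox2 (distance 0.725), a homeobox gene, Pde1a (0.817), a phosphodiesterase, Bmp4 (0.984), a secreted growth factor, Nts (1.07), the precursor of neurotensin, and Rcsd1 (1.11). Meox2 was at 1.46 on the arrays labelled Srf, -1.63 with Mkl1, -3.39 with shActb_1 and -2.03 with shActb_2. A second Bmp4 probe disagreed, at -0.70, -0.74, 0.52 and -0.38. Over 2-fold higher on the arrays labelled Srf and over 2-fold lower in the other 3 comparisons were 7 genes, namely Daam2, Dkk1, Fbln5, Meox2, Nrk, Ramp2 and Rcsd1. Daam2 encodes a formin that takes part in Wnt signalling. Of the nearest genes none was a member or on the pathway lists.

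**Figure D4:**
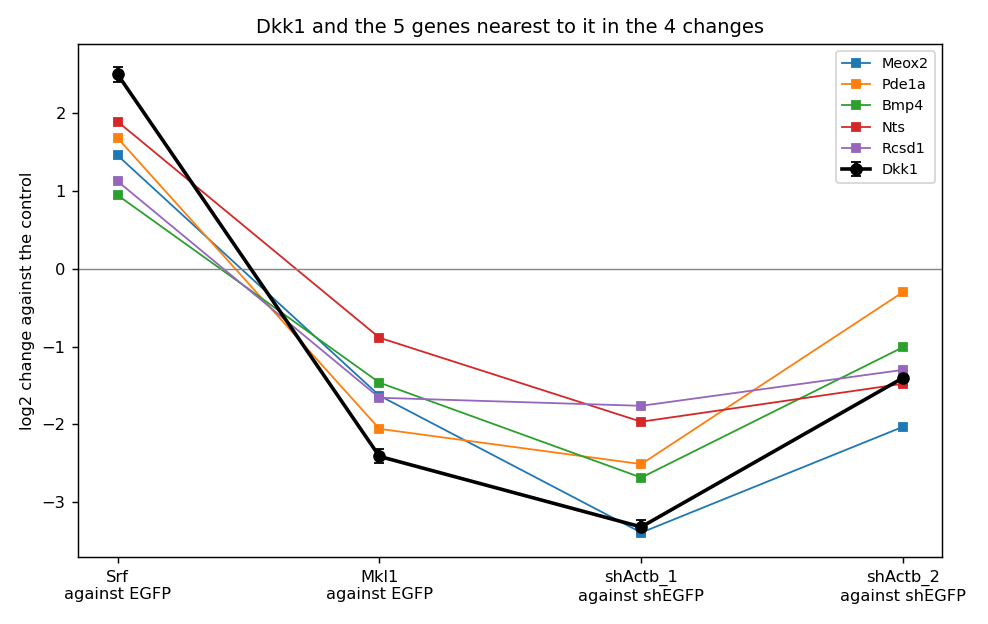
Log2 difference from the control (vertical axis) in the 4 treatment comparisons for Dkk1 (black, bars are the standard error) and the 5 genes nearest to it. Lines join the values of 1 gene and do not stand for a course. All 6 genes were above 0 on the arrays labelled Srf and below 0 in the other 3 comparisons, and Dkk1 was the highest with the arrays labelled Srf and the lowest with Mkl1.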

How the data were processed

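Total RNA was labelled with cyanine 3 and hybridized to 1-colour Agilent mouse arrays. Scans were quantified by the authors in Feature Extraction 11.5.1.1, and they deposited processed signal intensities, background-subtracted and not normalized between arrays, together with a table of log2 values. Each deposited log2 column differed from log2 of the processed signal by a constant, within 0.01 for 100% of probes. It was used as an alternative. Here log2 was taken, control and outlier spots were left out, replicate spots were averaged, and each array was centred on its 75th percentile. Accessions were matched to RefSeq (GRCm38.p6 table), which named 28026 of 55681 probes (50.333%). All 12 arrays were fitted in limma 3.58.1 (R 4.3.3) with 1 mean per group. A probe was tested if both arrays of at least 1 compared group detected it well above background, with Benjamini-Hochberg adjustment over all tested probes, two-sided. The fit was tested on simulated data.

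Slide 1 held the arrays labelled EGFP, Mkl1 and Srf, slide 2 shEGFP and shActb_1, and slide 3 shActb_2. The number of arrays limits the precision. Named were all members, the targeted genes, the pathway genes called in at least 1 treatment comparison and the 5 genes nearest to Dkk1. Daam2, Fbln5, Nrk, Ramp2 and the marker genes and those that changed between the controls were named after their values were seen. The members and lists were chosen with earlier results of these data known. Alternatives were normexp, quantile normalization, the deposited table, other filters, the compared arrays only, a replicate block, a robust variance trend and leaving out each array.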

Additional observations from a re-analysis of the deposited data

Results flagged for a closer look

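Between the hairpins against Actb, Dkk1 and Sfrp2 differed, by a test of the difference itself (limma, adjusted over all tested probes). The arrays of this test also enter the comparisons that led to the choice of the members. Dkk1 was higher with shActb_2 than with shActb_1 by 1.92 (SE 0.09, adjusted p = 9.09e-05), on 2 of 2 arrays, and was lower than shEGFP with both. Sfrp2 was higher by 1.84 (SE 0.10, adjusted p = 0.000118), on 2 of 2 arrays. For Sfrp1 the fitted difference was -2.72, but it was compared only because shActb_1 was above background and no shActb_2 array was, so it has no test. Over 11 alternatives it ranged from -3.84 to -0.92, and it missed the criterion in 3. Hairpin and slide cannot be told apart in these differences.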

How the results depend on the processing

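The numbers of called probes moved by over 1.5 times in a few settings, and the cause was not tested. With the normexp background correction they were 842 instead of 1970 on the arrays labelled Srf, 367 instead of 996 with Mkl1, 250 instead of 583 with shActb_1 and 688 instead of 2283 with shActb_2. They were 421 instead of 1781 between the hairpins and 799 instead of 3850 between the controls. With only probes above background on all 12 arrays, which leaves fewer probes to test, they were 1342 with shActb_2, 993 between the hairpins and 1539 between the controls. With the compared arrays only, the Mkl1 count was 126. Leaving out each array gave 1719 to 2924 for the arrays labelled Srf, 744 to 2213 for Mkl1, 501 to 668 for shActb_1, 1798 to 3448 for shActb_2 (the highest without shActb_2 replicate 1), 1554 to 2585 between the hairpins and 2654 to 4418 between the controls. Without EGFP replicate 2, higher and lower probes were 1272 and 1652 for the arrays labelled Srf (instead of 1170 and 800) and 690 and 1523 for Mkl1 (instead of 462 and 534), and 2009 and 2409 between the controls (instead of 2234 and 1616). Mkl1 had 565 and 537 without Mkl1 replicate 1 and 418 and 326 without Mkl1 replicate 2. shActb_1 had 278 and 304 without shActb_1 replicate 1 (instead of 176 and 407). Without shActb_2 replicate 2 they were 1160 and 1160 with shActb_2 and 1175 and 803 between the hairpins. Quantile normalization changed the split into higher and lower probes with Mkl1 (818 and 459 instead of 462 and 534), with shActb_2 (749 and 886 instead of 627 and 1656) and between the hairpins (632 and 685 instead of 634 and 1147). Normexp changed it with shActb_1 (101 and 149 instead of 176 and 407) and with shActb_2 (288 and 400). It also moved the median of all probes between the controls to -0.105, from -0.0705.

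Replicate numbers do not pair the arrays here: the correlation of same-numbered arrays lay between -0.00232 and 0.261. With the replicate block the counts were 2038 for the arrays labelled Srf, 1024 for Mkl1, 592 for shActb_1, 2329 for shActb_2, 1814 between the hairpins and 4021 between the controls, and no member changed its side of the criterion. A slide block leaves the comparisons within a slide unchanged by construction and could not be fitted for the others.

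Dkk1 kept its sign in 12 of 12 alternatives in each of the 6 comparisons. This is no test, since Dkk1 was chosen by its signs in the treatment comparisons. The other filters, the compared arrays only, the replicate block and the robust trend leave its difference unchanged by construction. Leaving out 1 array cannot turn a sign where the compared groups do not overlap. The Dkk1 difference ranged from 2.32 to 2.58 on the arrays labelled Srf, from -2.49 to -1.55 with Mkl1, from -3.37 to -2.31 with shActb_1, from -1.52 to -1.16 with shActb_2 and from 1.15 to 2.04 between the hairpins. Under normexp Dkk2 was at -0.89 with Mkl1, -0.93 with shActb_1 and -0.82 with shActb_2, Sfrp2 at -0.84 with Mkl1, and Lef1 probe A_55_P2076871 at 0.99 on the arrays labelled Srf and 0.82 with shActb_2, all under 2-fold. With the compared arrays only, Dkk2 and Sfrp2 with Mkl1 no longer met the criterion, and Dkk1 was the only member that did. The criterion was newly met with the compared arrays only by Sfrp1 and Frzb on the arrays labelled Srf and by Frzb with shActb_1. It was newly met under the robust trend by Frzb with Mkl1, and under quantile normalization by Dkk3 with shActb_1 (-1.01) and by Lef1 probe A_51_P420400 on the arrays labelled Srf (1.0019) and with shActb_2 (1.07). Sfrp1 with EGFP, and Frzb with Mkl1 and with shActb_1, were above background on neither array. These probes entered only through the brighter group, so meeting the criterion there is no test. Leaving out 1 array also moved Lef1 A_51_P420400 on the arrays labelled Srf and Dkk3 with shActb_1 over 2-fold, and Lef1 A_55_P2076871 with shActb_2 under it. Under normexp Frzb was at 0.65 on the arrays labelled Srf and -0.45 with Mkl1. Sfrp1 with shActb_1 ranged from 0.91 to 4.02 over 11 alternatives and missed the criterion in 6, and between the hairpins from -3.84 to -0.92. The signal over background limits Sfrp1, Frzb, Wif1, Axin2 and the dimmer Nkd1 probe.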

Other observations

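Between the control groups, 1 of 77 tested genes of the other pathway lists met the criterion on the higher side with shEGFP against EGFP and 4 on the lower side. Fzd7 was higher by 1.36 (SE 0.08, adjusted p = 0.000111, limma) at 1 probe and differed by 0.26 at the other. Apcdd1 fell by 1.0962 with shEGFP against EGFP (SE 0.16, adjusted p = 0.003, limma), and Wnt4 fell by 1.23 (SE 0.22, adjusted p = 0.00574, limma) at 1 probe and was at -0.73 at the other. Kremen2, the gene of a receptor for Dkk proteins, was at least 3.08-fold lower, and Draxin, a secreted antagonist, at least 6.13-fold lower. Both are bounds and not tests, since neither was well above background on a shEGFP array at the probe compared and both are among the 4 only through EGFP. The EGFP arrays read -3.81 and -4.61 for Kremen2 and -3.05 and -4.21 for Draxin. Vector and slide cannot be told apart in these differences.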
